A study of Saccharomyces cerevisiae with 4 samples.

Results

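Glycolytic steps that budding yeast runs with alternative forms of 1 enzyme are described here in dis3-E729K and wild-type cells. The 10 genes were chosen by name for their enzyme step, with earlier results of these data known. They are HXK1, HXK2 and GLK1 for the phosphorylation of glucose, and TDH1, TDH2 and TDH3 for glyceraldehyde-3-phosphate dehydrogenase. The others are ENO1 and ENO2 for enolase, and CDC19 and PYK2 for pyruvate kinase. For 9 of the 10 a probe set was tied to exactly 1 gene, out of 5449 genes tested, and TDH2 was not analysed here. None of the 9 probe sets carries the suffix that marks cross-hybridisation with other transcripts, and probe sequences were not used here to check that further.

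The series compares a missense allele of DIS3, the catalytic ribonuclease of the RNA exosome, with wild type. Total RNA from 4 cultures of the BY4741 background was hybridised to 4 one-colour arrays, 2 for each genotype. Both genotypes carried URA3 next to DIS3 and grew at 30 °C in drop-out medium that selects for the DIS3 allele, until log phase. The values are RMA log2 intensities, so a difference of 1 is a factor of 2, and precision is limited by having 4 arrays. DIS3 itself read 11.65 and 11.82 in wild type and 11.49 and 11.12 in the mutant (limma adjusted p = 0.154), a level that does not check a missense allele.

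Glycolysis splits glucose into pyruvate, and baker's yeast runs several of its steps with more than 1 gene. One isoenzyme of a step usually dominates in cells growing on glucose, and its partner is used when glucose runs low or when cells are stressed. Hexokinase 2 also has a regulatory role: it takes part in glucose repression, the shutdown of genes for other carbon sources.

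Before the results, a feature of the cultures has to be stated. BY4741 is a strain of mating type a, and all 7 measured genes that mark a cells were higher on both replicate 1 arrays than on both replicate 2 arrays, while all 5 that mark alpha cells were higher on both replicate 2 arrays. Summed over the list, the a-cell genes read 14.32 and 14.55 on the replicate 1 arrays and 9.61 and 9.45 on the replicate 2 arrays (log2 of summed intensity). For the alpha-cell genes the sums were 9.96 and 9.64 on the replicate 1 arrays against 15.28 and 14.65 on the replicate 2 arrays. MET17 is deleted in BY4741, yet its probe set gave 9.55 in the second wild-type culture, where the remaining cultures gave 3.22 to 3.47. The split runs across both genotypes, so each isoenzyme's change is also given within a replicate number.

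In dis3-E729K some isoenzymes of a step rose while others did not pass the test. HXK1, GLK1 and PYK2 were 5.39-fold, 3.55-fold and 4.81-fold higher in dis3-E729K, while their partners HXK2 and CDC19 differed by 1.16-fold and 1.09-fold and did not pass. In limma's test with Benjamini-Hochberg adjustment over all 5449 genes, 3 of the 9 isoenzymes rose and 0 fell, where 7.71% of all genes rose and 8.15% fell. TDH1 and ENO1 lay between, higher by 0.54 and 0.60 log2 units without passing. Both mutant arrays read above both wild-type arrays for 9 of 9 isoenzymes, which held for 32.3% of all genes, with 41.8% showing the opposite order. The median change over the 9 was 0.54, beside -0.07 over all genes tested. At an unadjusted p under 0.05, 5 of the 9 were higher and 0 lower, with 18.1% of all genes higher and 22.6% lower. In RNA from whole cultures, more cells that express a gene and more RNA in each cell cannot be told apart.

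**Figure D1:**
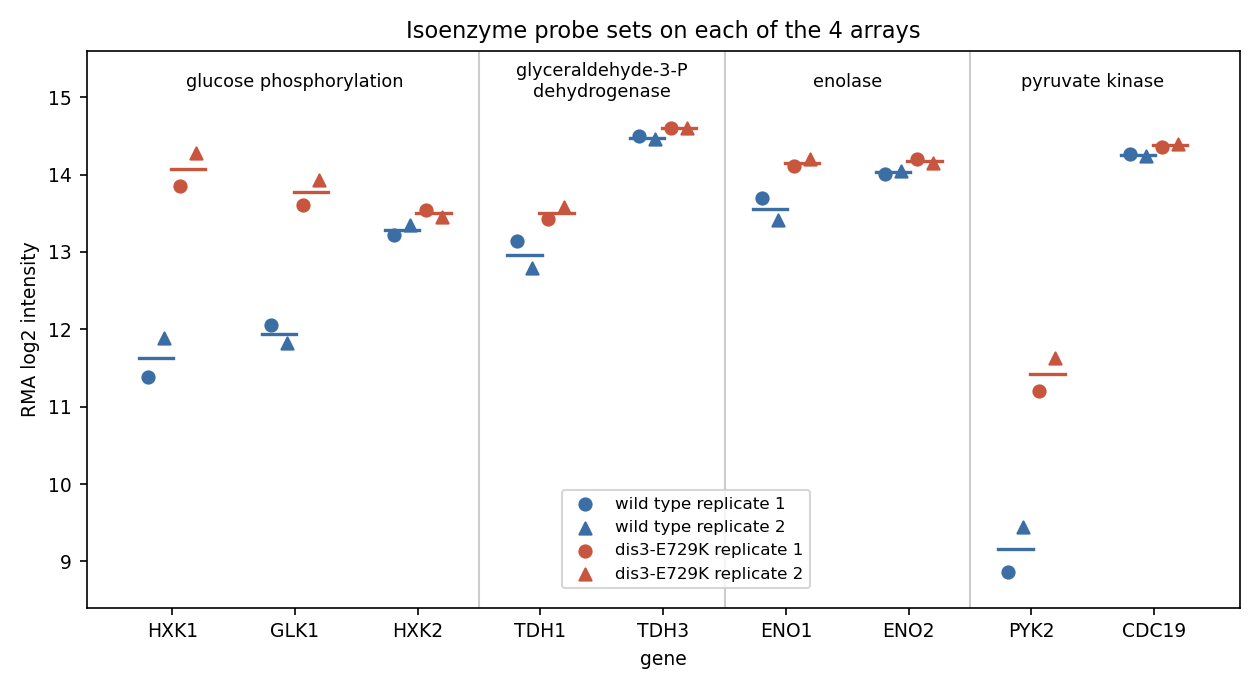
RMA log2 intensity of the 9 isoenzyme probe sets (vertical axis) on each array, ordered by enzyme step; circles are replicate 1, triangles replicate 2, and bars the mean of 2 arrays per genotype. HXK1, GLK1 and PYK2 show a wide gap between genotypes, 1.55 to 1.97 log2 units between the nearest arrays, and the 4 arrays lie close together for HXK2, TDH3, ENO2 and CDC19. Heights of different genes are not comparable, because each probe set has its own response.

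The first step of glycolysis traps glucose in the cell as glucose-6-phosphate. HXK1 (YFR053C), hexokinase 1, which phosphorylates glucose and fructose, read 11.39 and 11.88 in wild type replicates 1 and 2 and 13.86 and 14.28 in dis3-E729K replicates 1 and 2. The genotypes did not overlap, and within each genotype replicate 2 was the higher array. The mean went from 11.64 ± 0.35 to 14.07 ± 0.30 (SD, n = 2 each), a log2 change of 2.43 ± 0.25 (SE, limma adjusted p = 0.0335), the 70th largest rise of 5449 genes. Within replicate number 1 the difference was 2.47 and within number 2 it was 2.39.

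GLK1 (YCL040W), glucokinase, phosphorylates glucose but not fructose. It read 12.06 and 11.82 in wild type and 13.61 and 13.93 in the mutant. Again both mutant arrays were above both wild-type arrays, by at least 1.55. The change was 1.83 ± 0.18 (SE, limma adjusted p = 0.0335), with 1.55 within replicate number 1 and 2.11 within number 2.

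HXK2 (YGL253W) encodes the main hexokinase of cells growing on glucose. It read 13.22 and 13.34 in wild type and 13.54 and 13.45 in the mutant. The groups did not overlap, but their nearest arrays were 0.11 apart. The change of 0.22 ± 0.13 (SE) did not pass (limma adjusted p = 0.265), and its 95% interval ran from -0.13 to 0.56, which ends below the lower bounds of 1.74 for HXK1 and 1.34 for GLK1. Within replicate numbers 1 and 2 it was 0.33 and 0.11.

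Set against each other within an array, the hexokinase genes separated by genotype. HXK1 minus HXK2 was -1.83 and -1.46 in wild type and 0.31 and 0.83 in the mutant, so that HXK1 signal was 4.64-fold higher relative to HXK2 in dis3-E729K. The same ratio for GLK1 over HXK2 was 3.06-fold higher, from -1.16 and -1.52 to 0.07 and 0.48 on the log2 scale. The groups did not overlap in either ratio. Among single genes both mutant arrays were above both wild-type arrays for 32.3% and below for 41.8%, and the share over other gene pairs was not computed. The shift held within each replicate number, at 2.14 and 2.29 for HXK1 over HXK2 and 1.22 and 2.00 for GLK1 over HXK2. HXK1 and GLK1 differed less from each other: their ratio was -0.67 and 0.06 in wild type and 0.25 and 0.34 in the mutant. The 0.60 shift between those means is close to the SD of 0.52 between the wild-type arrays, and it was 0.24 without wild type replicate 1 and 0.97 without wild type replicate 2. For each of the 6 ratios compared over all steps, the exact two-sided permutation test over the 4 arrays gave p = 0.333, also after Benjamini-Hochberg adjustment, which is the smallest p that 2 arrays against 2 allow, so these ratios are reported by their values.

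**Figure D2:**
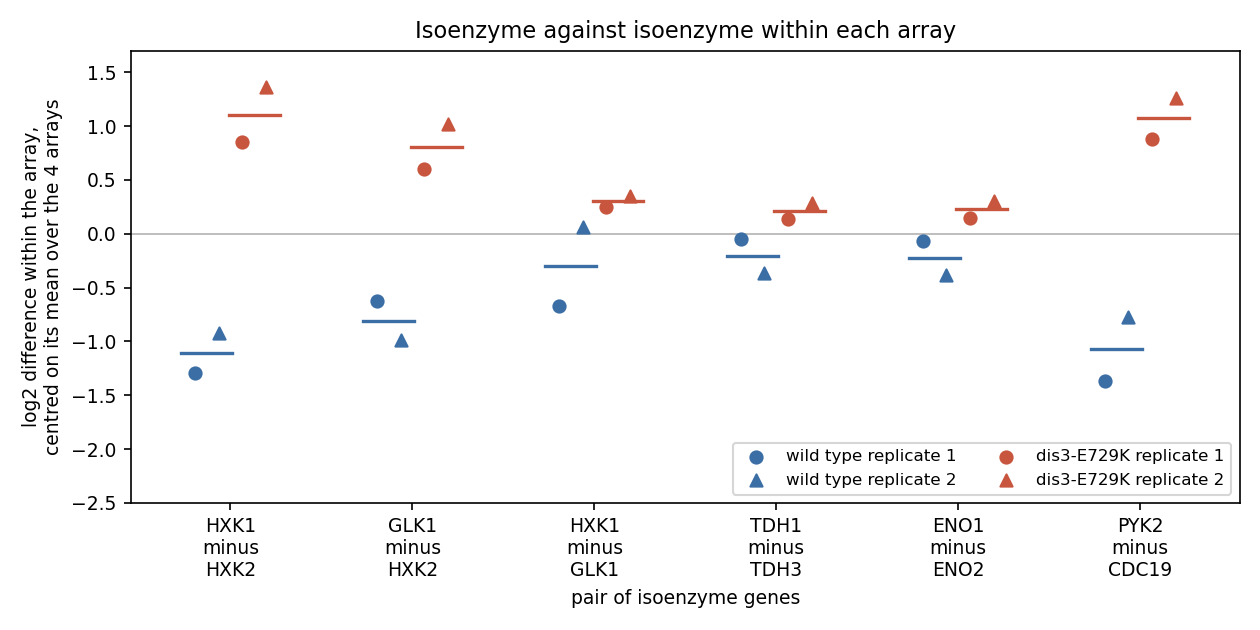
Log2 difference between 2 isoenzyme genes within each array, centred on its mean over the 4 arrays (vertical axis), for the 6 pairs; circles are replicate 1, triangles replicate 2, and bars the means per genotype. The wild-type and mutant arrays do not overlap for any pair, and the hexokinase pairs share genes. Of all single genes, 32.3% had both mutant arrays above both wild-type arrays and 41.8% both below. The shift is 2.22 for HXK1 over HXK2 and 2.14 for PYK2 over CDC19. It is 0.42 to 0.60 for the 3 pairs HXK1 with GLK1, TDH1 with TDH3 and ENO1 with ENO2.

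Pyruvate kinase closes the pathway. PYK2 (YOR347C), the isoenzyme that is repressed by glucose and does not need fructose-1,6-bisphosphate for activity, read 8.87 and 9.44 in wild type and 11.21 and 11.63 in the mutant. As with HXK1, the genotypes were far apart and replicate 2 was the higher array in each. The change was 2.27 ± 0.27 (SE, limma adjusted p = 0.0337), with 2.34 and 2.19 within the replicate numbers, the 92nd largest rise.

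CDC19 (YAL038W), the main pyruvate kinase, which fructose-1,6-bisphosphate activates, read 14.27 and 14.24 in wild type and 14.36 and 14.40 in the mutant. Its change of 0.12 ± 0.12 (SE) did not pass (limma adjusted p = 0.459, 95% interval -0.19 to 0.44), with 0.09 and 0.16 within the replicate numbers. With quantile normalization over the genes tested it was 0.05. PYK2 minus CDC19 went from -5.40 and -4.80 in wild type to -3.15 and -2.76 in the mutant, a shift of 2.14 log2 units in the ratio of signals, with 2.25 and 2.04 within the replicate numbers. CDC19 ranked 6 in brightness among the genes tested, and the part of array saturation in this ratio was not tested.

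The calls of HXK1, GLK1 and PYK2 depended on single arrays, while the size of each change moved little. Without dis3-E729K replicate 2 none of the 3 passed, with adjusted p of 0.113, 0.113 and 0.116 and changes of 2.22, 1.67 and 2.05. In that fit limma's test called 0 of 5449 genes, and 694 were higher and 868 lower by unadjusted p under 0.05. Without wild type replicate 2, the array with MET17 signal, the adjusted p was 0.0523, 0.0672 and 0.0523 at changes of 2.68, 1.71 and 2.55. PYK2 also missed the threshold without dis3-E729K replicate 1 (2.48, adjusted p = 0.0514).

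In the middle of the pathway the differences were smaller. TDH1 (YJL052W), the form of glyceraldehyde-3-phosphate dehydrogenase known from stressed and slowly growing cells, read 13.14 and 12.79 in wild type and 13.43 and 13.58 in the mutant. The change of 0.54 ± 0.17 (SE) did not pass (limma adjusted p = 0.0983, 95% interval 0.06 to 1.02). It was 0.29 and 0.79 within replicate numbers 1 and 2, and wild type replicate 2 was the lowest of the 4 arrays. TDH3 (YGR192C), the main form of the enzyme, read 14.49 and 14.46 in wild type and 14.60 and 14.60 in the mutant. Its change of 0.12 ± 0.12 did not pass either (limma adjusted p = 0.453, 95% interval -0.19 to 0.44), with 0.11 and 0.14 within the replicate numbers. With quantile normalization over the genes tested it was 0.02. TDH1 minus TDH3 was -1.35 and -1.67 in wild type and -1.17 and -1.02 in the mutant, 0.18 and 0.65 higher within the replicate numbers. The shift of 0.42 between the means was 0.26 without wild type replicate 2.

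The array carries 4 more probe sets named for TDH1, made as controls along the transcript, and they gave a further reading of the same RNA. Toward the 3' end TDH1 read 13.36 and 13.08 in wild type and 13.64 and 13.78 in the mutant, toward the 5' end 13.14 and 12.58 against 13.44 and 13.64, and in the middle 12.11 and 11.49 against 12.65 and 12.82. Both mutant arrays were above both wild-type arrays in each of these, an order that held for 32.3% of all genes, with 41.8% showing the opposite. These sets read the same 4 arrays, so they are not separate replicates. The changes were 0.49 ± 0.16, 0.68 ± 0.24 and 0.94 ± 0.25 (SE), with limma adjusted p of 0.0992, 0.111 and 0.0706. The largest of them came from the dimmest set, whose mean was 12.27. The other middle probe set is marked as cross-hybridising and read 14.17 to 14.42, with a change of 0.20 ± 0.12 (adjusted p = 0.266). Which transcripts it shares is not given in the sources used here.

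**Figure D3:**
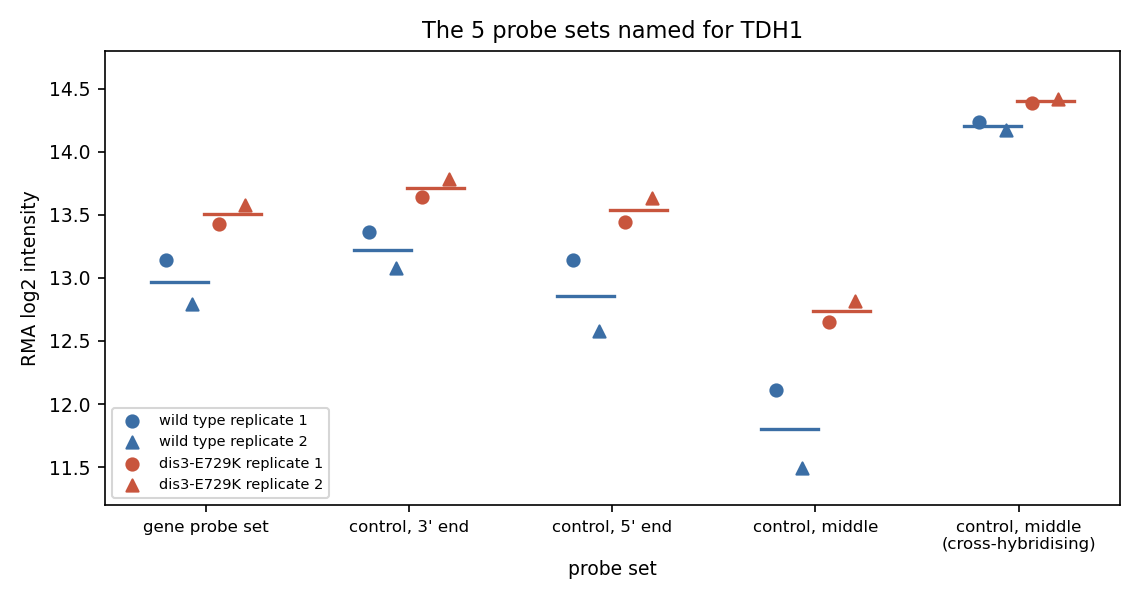
RMA log2 intensity (vertical axis) of the 5 probe sets named for TDH1 on each array; circles are replicate 1, triangles replicate 2, and bars the means per genotype. All 5 sets read higher on both mutant arrays, the gap between means is widest, 0.94, in the dimmest set and narrowest, 0.20, in the cross-hybridising one, and wild type replicate 2 is the lowest array throughout.

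Enolase catalyses the step before pyruvate kinase. ENO1 (YGR254W), the form less dependent on glucose, read 13.69 and 13.42 in wild type and 14.11 and 14.20 in the mutant. The change of 0.60 ± 0.15 (SE) missed the threshold (limma adjusted p = 0.0657, 95% interval 0.18 to 1.02), and passed at an adjusted p of 0.0422 when the variance prior followed intensity. It was 0.41 and 0.78 within replicate numbers 1 and 2. ENO2 (YHR174W), which glucose induces, read 14.01 and 14.05 in wild type and 14.21 and 14.15 in the mutant, a change of 0.15 ± 0.12 that did not pass (limma adjusted p = 0.394, 95% interval -0.17 to 0.47), and 0.19 and 0.10 within the replicate numbers. ENO1 minus ENO2 was -0.32 and -0.63 in wild type and -0.10 and 0.06 in the mutant, a shift of 0.22 and 0.69 within the replicate numbers. Between the means it was 0.45, and 0.30 without wild type replicate 2.

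By size of change the 9 genes fell in the order HXK1, PYK2, GLK1, ENO1, TDH1, HXK2, ENO2, TDH3 and CDC19. The intervals of HXK1, PYK2 and GLK1 overlap each other, and the lowest of their lower bounds, 1.34 for GLK1, lies above the upper bound of 1.02 for ENO1. The intervals of the other 6 genes overlap each other, so their order is not resolved. As profiles over the 4 arrays, each taken as deviations from its own mean, HXK1 and PYK2 were 0.17 log2 units apart (Euclidean distance over 4 arrays), against 0.80 for HXK1 and GLK1. TDH1 and ENO1 were 0.09 apart and TDH3 and CDC19 0.03. GLK1 differed from HXK1 and PYK2 in the wild type, where replicate 1 was its higher array.

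The isoenzymes with the smallest changes include the brightest. TDH3, CDC19 and ENO2 are among the brightest 50 genes on the mean of the arrays, ranked 1, 6 and 32, and TDH3 gave the highest value of the whole array in 3 of the 4 cultures. Among these 50 genes changes ran from -0.32 to 0.32, with a median absolute change of 0.08 against 0.39 over all genes. In limma's test 0 of the 50 passed, and 0 had an unadjusted p under 0.05. The SE of that fit was 0.12 for TDH3 and for CDC19. At such an SE changes of this size can hardly reach that p, so these counts do not show that the genes were unchanged. The part of array saturation in these small changes was not tested. The highest HXK1 value, 14.28, lies in the same range.

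**Figure D4:**
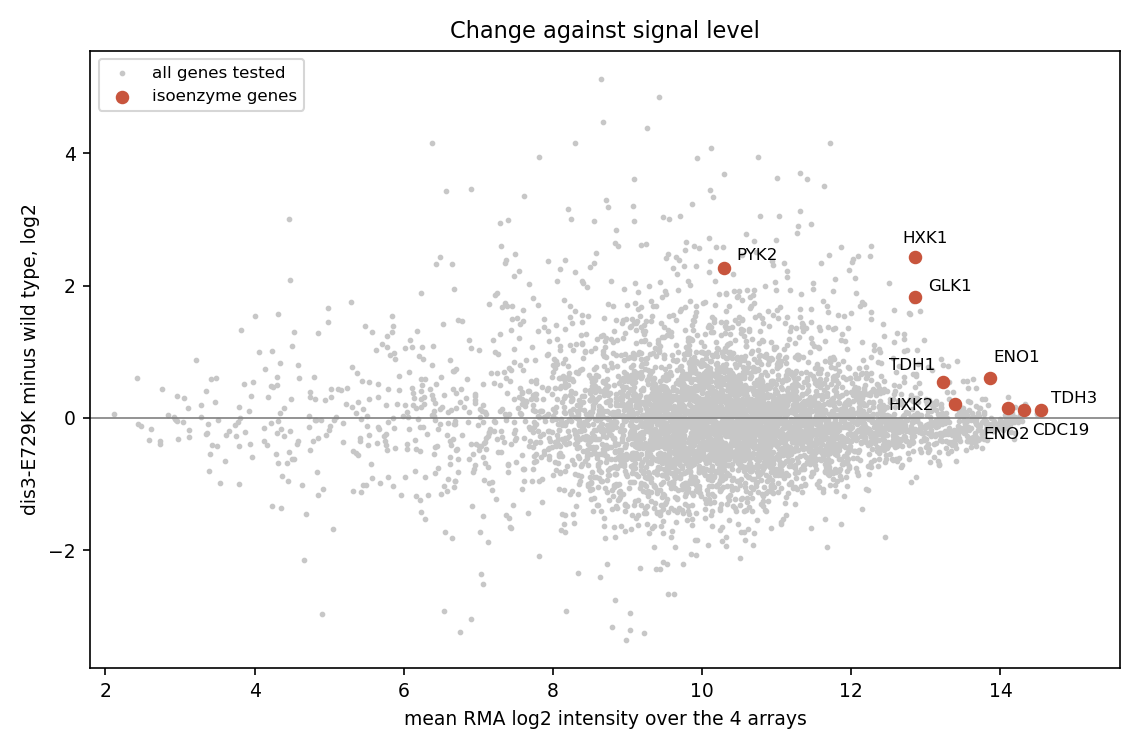
Log2 change, dis3-E729K minus wild type (vertical axis), against mean RMA log2 intensity over the 4 arrays (horizontal axis) for all 5449 genes in grey and the 9 isoenzymes in red. Changes narrow toward the bright end, where TDH3, CDC19 and ENO2 sit at 0.12 to 0.15, while HXK1 and GLK1 at a mean of about 12.85 and 12.86 lie at 2.43 and 1.83.

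The rest of the pathway was read through 7 lists with 39 measured genes, of which 4 rose and 1 fell, beside 7.71% and 8.15% of all genes. None of the 7 glycolytic enzymes with a single main gene or subunit gene passed limma's test, and 0 had an unadjusted p under 0.05, where 18.1% of all genes were higher and 22.6% lower. Their changes ran from 0.07 to 0.28 (median 0.17), and these are bright genes too, with wild-type means of 13.23 to 14.25. PGI1, phosphoglucose isomerase, was at 0.28 ± 0.16 (SE) and PGK1, phosphoglycerate kinase, at 0.21 ± 0.12. The PGK1 arrays had SDs of 0.02 in wild type and 0.01 in the mutant, so most of its SE came from the variance prior. GPM1, at 0.18 ± 0.12, had SDs of 0.01 and 0.02. For such genes a missed threshold does not show less change than in other genes. For 5 of the 7 both mutant arrays were above both wild-type arrays, as for 32.3% of all genes.

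Minor relatives of the glycolytic enzymes held the largest change of the lists. EMI2, a paralogue of GLK1, read 9.37 and 10.12 in wild type and 12.62 and 13.14 in the mutant. It rose by 3.14 ± 0.34 (SE, limma adjusted p = 0.0336), the 28th largest rise of all genes, and missed the threshold without dis3-E729K replicate 2 (2.87, adjusted p = 0.114). GPM2, a relative of the phosphoglycerate mutase gene GPM1, was 2.07 ± 0.47 higher without passing (adjusted p = 0.0546). ERR3, an enolase-related gene read by a cross-hybridising probe set, was at -0.60 ± 0.43 (adjusted p = 0.352). So 1 of 4 measured members rose and 3 did not pass (7.71% of all genes rose), with a median of 1.14 beside -0.07 over all genes, and YLR446W, ERR1 and ERR2 were not analysed here.

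Of 7 measured transcription factor genes that act on glycolytic promoters, 1 fell and 0 rose, with a median of 0.02. Over all genes 8.15% fell and 7.71% rose. ABF1, a general regulatory factor that binds many promoters, read 10.78 and 10.80 in wild type and 9.77 and 9.61 in the mutant, and fell by 1.09 ± 0.13 on the log2 scale (SE, limma adjusted p = 0.0336). Its call was lost when either wild-type array was left out (adjusted p = 0.0643 for replicate 1 and 0.0952 for replicate 2) and without dis3-E729K replicate 2 (adjusted p = 0.113), and with the replicate number as a block (adjusted p = 0.0516). RAP1, an activator of glycolytic and ribosomal protein genes, was at -0.51 ± 0.14 (adjusted p = 0.0771) and TYE7, a helix-loop-helix activator of glycolytic genes, at 0.37 ± 0.15 (adjusted p = 0.152). SGC1, also listed, is an older name of TYE7.

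Among 8 genes that act with hexokinase 2 in glucose repression or report on it, 2 rose and 0 fell, with a median of 0.76, beside 7.71% rising, 8.15% falling and a median of -0.07 over all genes. MIG1, the repressor that silences genes in glucose, read 10.51 and 10.21 in wild type and 11.12 and 11.46 in the mutant, a rise of 0.93 ± 0.19 (SE, limma adjusted p = 0.0493). SNF1, the kinase that relieves this repression, read 10.84 and 10.75 against 11.43 and 11.59 and rose by 0.72 ± 0.13 (adjusted p = 0.0430). MED8, a subunit of Mediator, was at 0.99 ± 0.29 (adjusted p = 0.0834) and MIG2, a relative of MIG1, at 0.89 ± 0.40 (adjusted p = 0.175), and neither passed. Both calls were lost whichever array was left out, with adjusted p of 0.0633 to 0.170 for MIG1 and 0.0552 to 0.182 for SNF1. With the replicate number as a block neither passed (adjusted p of 0.0836 and 0.0920).

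Of 4 genes that set the balance of the fructose bisphosphates 1 rose, with a median of 1.04 (7.71% of all genes rose, median -0.07). FBP26, fructose-2,6-bisphosphatase, read 9.16 and 8.99 in wild type and 10.43 and 11.10 in the mutant, a rise of 1.69 ± 0.27 (SE, limma adjusted p = 0.0373). That call was lost when wild type replicate 1 (adjusted p = 0.0569), wild type replicate 2 (adjusted p = 0.0934) or dis3-E729K replicate 2 (adjusted p = 0.113) was left out. FBP1, the gluconeogenic fructose-1,6-bisphosphatase, was at 1.47 ± 0.52 (adjusted p = 0.114) and PFK26, which makes fructose-2,6-bisphosphate, at 0.61 ± 0.30 (adjusted p = 0.206). Between pyruvate and ethanol limma's test called 0 of 5 genes, and 1 was higher by unadjusted p under 0.05 (median 0.11), as were 18.1% of all genes. ADH2, the glucose-repressed alcohol dehydrogenase, was at 1.33 ± 0.28 (adjusted p = 0.0503) and PDC6, a minor pyruvate decarboxylase, at -0.62 ± 0.30 (adjusted p = 0.199). The 4 genes of the glycerol branch gave 0 calls, 2 higher at an unadjusted p under 0.05 (18.1% of all genes) and a median of 0.45, with the glycerol-3-phosphate dehydrogenase genes GPD1 at 1.14 ± 0.27 and GPD2 at 0.77 ± 0.18 (adjusted p = 0.0568 and 0.0562).

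**Figure D5:**
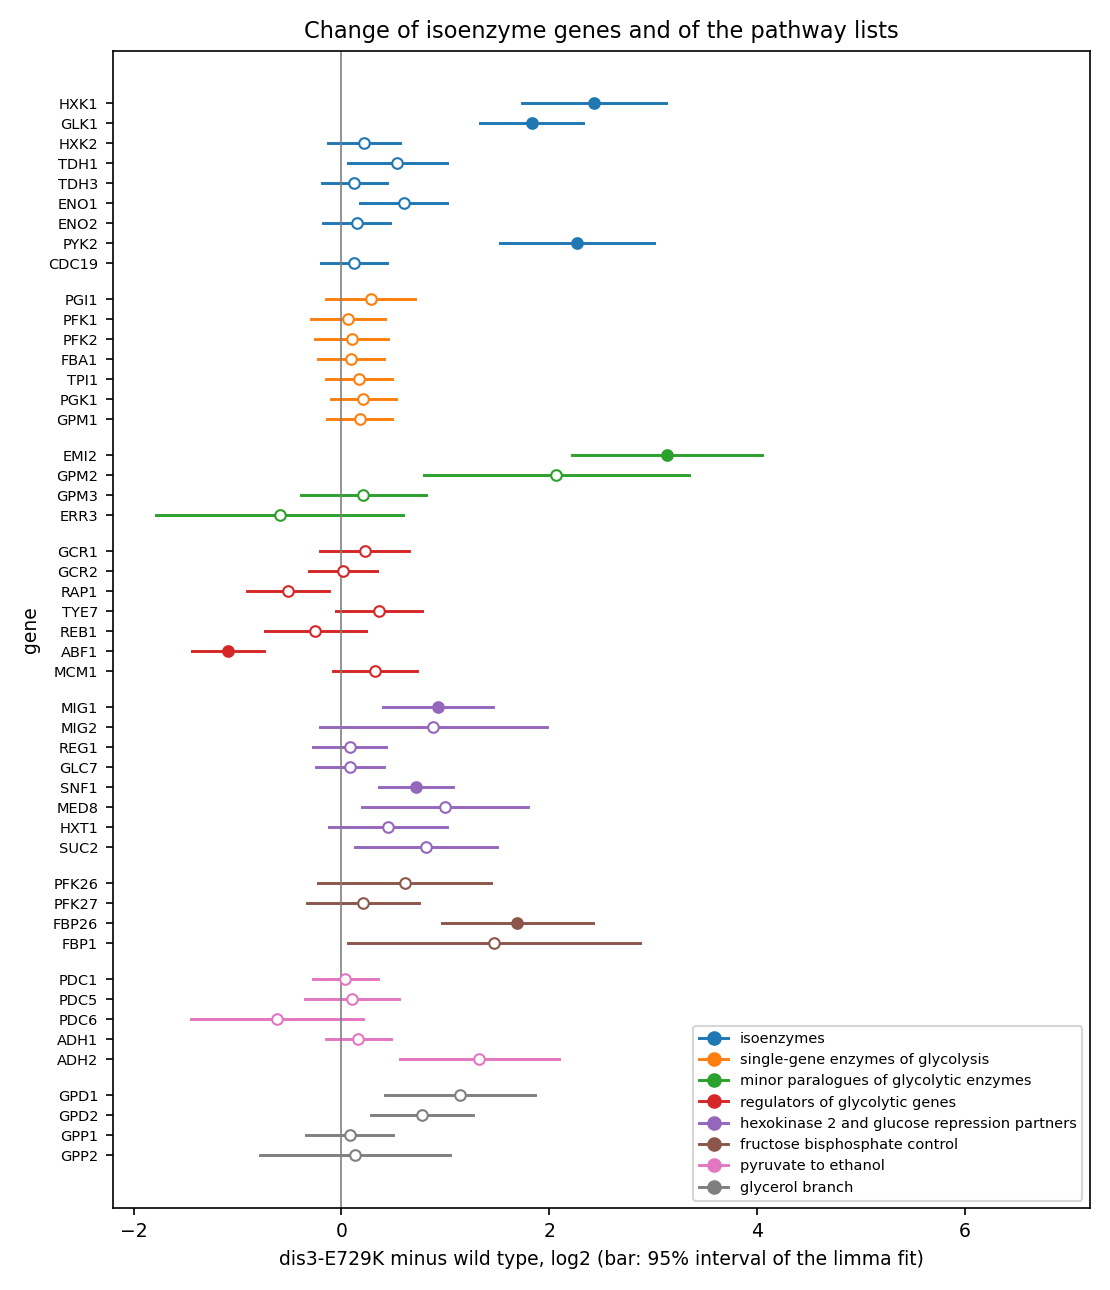
Log2 change, dis3-E729K minus wild type (horizontal axis), with the 95% interval of the limma fit, for the 9 isoenzymes and the 39 measured genes of the 7 pathway lists, coloured by list; filled points passed an adjusted p under 0.05. The single-gene enzymes sit between 0.07 and 0.28, and EMI2 at 3.14 and ABF1 at -1.09 are the extremes.

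The 3 isoenzymes whose range over the arrays was above 1 log2 unit were matched to the nearest profiles among 5383 other genes above background. Nearest to HXK1 were YPK2, a protein kinase gene, GSY2, a glycogen synthase gene, and YKL183C-A, at distances of 0.02, 0.09 and 0.13 log2 units over the 4 arrays. The same 3 genes were nearest to PYK2, at 0.18, 0.22 and 0.13. YPK2 read 8.18 and 8.68 in wild type and 10.64 and 11.09 in the mutant, and GSY2 10.82 and 11.23 against 13.22 and 13.73. Nearest to GLK1 were RMD5, a ubiquitin ligase subunit gene, YPT35 and VID24, at 0.06, 0.16 and 0.20. RMD5 read 8.63 and 8.48 in wild type and 10.22 and 10.56 in the mutant. With 4 arrays many profiles lie close by, and the distances are a description.

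Stress markers overlapped between the genotypes. HSP12, a small membrane protein of stressed cells, read 13.62 and 11.70 in wild type and 11.21 and 14.04 in the mutant, and HSP26, a small heat shock protein, 13.68 and 10.76 against 11.24 and 13.00. CTT1, catalase T, read 10.66 and 8.38 against 10.26 and 12.16, and SSA3, a chaperone of stationary phase, 11.14 and 9.73 against 10.31 and 10.91. The order of the arrays differed from that of HXK1, GLK1 and PYK2 in all 4, and the summed level was 14.85 and 12.61 in wild type and 12.83 and 14.94 in the mutant (log2 of summed intensity). Wild type replicate 2 had the lowest sum, as it had the lowest GLK1, TDH1 and ENO1 values. The highest sum was on dis3-E729K replicate 2, which also gave the highest values of these isoenzymes and of HXK1 and PYK2. Within each genotype GLK1, TDH1 and ENO1 had the order of the 4 markers, with replicate 1 higher in wild type and replicate 2 in the mutant. The part of this culture difference in the isoenzyme values, those of GLK1, TDH1 and ENO1 among them, was not tested.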

How the data were processed

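Total RNA of 4 yeast cultures was measured on one-colour Affymetrix arrays. The table deposited by the authors holds a log2 intensity for each probe set on each array. The submitters' processing notes name RMA, Transcriptome Analysis Console and Affymetrix Expression Console. Because RMA brings all arrays to 1 distribution of values, a global shift in mRNA cannot be seen. Coordinates are not printed, since the genome build is not given in the sources used here.

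Of 10928 probe sets, 5498 matched a single S. cerevisiae gene through the platform annotation and Entrez identifiers of RefSeq assembly R64. The brightest probe set on the mean of the 4 arrays was kept for each of 5449 genes. The genotypes were compared by limma 3.58.1 under R 4.3.3 (functions lmFit and eBayes, 2 residual and 2.18 prior degrees of freedom), with Benjamini-Hochberg adjustment over all 5449 genes, a threshold of 0.05 and no filter on dim genes. The 95% intervals use the moderated SE. Ratios of isoenzymes were formed within arrays and compared by an exact permutation test. The background level of 4.06 is the 95th percentile of probe sets of another species on the array. The fit was tested on simulated data with independent noise between arrays, which lack the culture differences described above. Groups follow the titles of the samples, where each is named a biological replicate. The limma p-values weigh a gene's spread between these cultures together with a prior spread drawn from all genes. For genes that vary little between arrays the prior weighs most: the SE of TDH3 was 0.12, and 0.02 without variance moderation.

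Members, gene lists and alternatives were chosen with earlier results of these data known. Named were the 9 isoenzymes, each list gene that passed, and up to 2 others a list with the largest change. GPM1 was named besides these, for the SDs of its arrays. Also named were the 3 nearest profiles of each isoenzyme with a range above 1, marker genes of the cultures, and DIS3. The reading of TDH1 by control probe sets was added after seeing the data. Python 3.11.15 with pandas 2.3.3, scipy 1.17.1 and matplotlib 3.10.9 prepared tables, permutation tests and plots.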

Additional observations from a re-analysis of the deposited data

How the results depend on the processing

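The direction of all 9 isoenzyme changes held in every alternative run: the replicate block, an intensity trend or robust fit, quantile normalization or median centring, no variance moderation, dim genes or cross-hybridising probe sets left out, all probe sets, averaged probe sets, and each array left out, where the lone array of a genotype is assumed to vary like the other group. The 6 ratios, run with the block, quantile normalization, averaged probe sets and each array left out, kept their direction too. HXK1, GLK1 and PYK2 passed with the replicate block (adjusted p of 0.0253, 0.0377 and 0.0253), which left their changes at 2.43, 1.83 and 2.27. The replicate numbers were not shown to pair the cultures beyond the mating type genes: deviations of same-numbered arrays correlated at r = 0.08 across 5449 genes, which are not independent replicates. Without variance moderation none of the 3 passed (2.43, 1.83 and 2.27, adjusted p of 0.172, 0.170 and 0.177), as the test then has 2 degrees of freedom, and 0 genes rose and 2 fell over all genes. ENO1 (0.60) passed with an intensity trend only. Leaving out each array in turn gave 2.18 to 2.68 for HXK1, 1.67 to 1.99 for GLK1 and 1.98 to 2.55 for PYK2. The 3 isoenzymes called were then 0 to 3; 5 passed at an unadjusted p under 0.05 and 5 at an adjusted p under 0.1.

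Over all genes, 420 rose and 444 fell; 199 and 144 did with the replicate block, 986 and 1231 at an unadjusted p under 0.05, 883 and 1069 at an adjusted p under 0.1, and 0 to 316 and 0 to 351 with an array left out. Over the 7 lists 4 rose and 1 fell; with the replicate block 2 rose and 0 fell, without moderation 0 and 0, and with an array left out 0 to 4 and 0 to 1. The block ended the calls of ABF1, MIG1 and SNF1 (adjusted p of 0.0516, 0.0836 and 0.0920). Changes among the brightest 50 genes were small, and whether signal is compressed there was not tested.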
